A study of Sus scrofa with 35 samples.

Results

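The peroxiredoxin and thioredoxin system was followed through 10 genes: PRDX1 to PRDX6, TXN, TXN2, TXNRD1 and TXNIP. They were chosen by name, as all probes whose gene name in the scanner files is 1 of these symbols. This gave 63 probes of 60305 on the array, and 10 of the 45222 distinct names its probes carry, many of which are accession or cluster numbers. Of these probes, 61 were bright enough to be tested, and they covered 9 genes. The only TXN2 probe was well above background on 6 of 35 arrays (2 of Creole HS, 1 of F1 HS, and in Large White pigs 1 of TN and 2 of HS) and 1 of the 7 TXNRD1 probes on 1 array, so neither was tested and no level of TXN2 is given. For 41 of the 63 probes the accession was found in the RefSeq gene table of the pig, and it named the same gene for all 41.

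The muscle was the longissimus dorsi, the long muscle of the back, of castrated male pigs of 3 genetic types. Creole pigs, Large White pigs and their F1 cross were kept at thermoneutrality (TN, 24 °C) or exposed to heat stress (HS). The labels give 30 °C for HS, whereas the growth protocol gives 32 °C for 5 days. In the study's methods some HS animals were slaughtered a day short of that exposure, and the labels do not say which. Each breed had 6 arrays per temperature, each of 1 animal, except F1 pigs, with 5 arrays in HS. No group carried an engineered allele or a drug. By the study's methods, the room was warmed only once the TN animals had been slaughtered, and pens held animals of a single breed and treatment. Temperature, age, pen and slaughter day therefore cannot be told apart. Littermates were spread over the pens, and the labels do not give litters.

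Peroxiredoxins are enzymes that reduce hydrogen peroxide and other peroxides with a reactive cysteine. The oxidised enzyme is recharged by the small protein thioredoxin, and thioredoxin is recharged by thioredoxin reductase, which draws on NADPH. PRDX1 and PRDX2 work mainly in the cytosol, PRDX3 in the mitochondrion, PRDX4 in the endoplasmic reticulum, PRDX5 in several compartments, and PRDX6 with glutathione in place of thioredoxin. TXN and TXNRD1 are the cytosolic thioredoxin and its reductase, TXN2 is the mitochondrial thioredoxin, and TXNIP binds thioredoxin and restrains the uptake of glucose. Working muscle produces peroxide and contains mitochondria.

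Each probe is a DNA strand of 60 bases, and a few are printed, some because they show how far probes of a gene are separate measurements. The TXN pair comes first, and capitals mark the 59 bases in which 1 probe is the reverse complement of the other.
TXN, A_72_P177678: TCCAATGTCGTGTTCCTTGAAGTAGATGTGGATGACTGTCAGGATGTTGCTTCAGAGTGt
TXN, O7867: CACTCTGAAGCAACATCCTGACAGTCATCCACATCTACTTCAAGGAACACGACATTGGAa
These probes bind opposite strands of the same stretch, although both carry the name TXN.
In the PRDX1 pair, capitals mark the 45 bases that both probes hold, so they are nearly the same measurement.
PRDX1, A_72_P412538: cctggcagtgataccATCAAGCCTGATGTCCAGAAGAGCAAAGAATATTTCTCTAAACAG
PRDX1, O9257: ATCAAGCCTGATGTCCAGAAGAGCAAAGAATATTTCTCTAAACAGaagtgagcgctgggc
Of PRDX4, the brightest probe and the probe with the smallest adjusted p for HS against TN are shown. Capitals mark 18 bases that the latter shares with another PRDX4 probe, A_72_P560129.
PRDX4, A_72_P465440: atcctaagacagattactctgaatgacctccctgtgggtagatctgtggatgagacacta
PRDX4, CUST_492_PI427286967: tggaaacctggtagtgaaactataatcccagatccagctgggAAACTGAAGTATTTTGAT
For TXNIP, 3 probes are shown because they had the lowest unadjusted p for a breed by temperature interaction, and capitals mark the 17 bases that 2 of them share.
TXNIP, A_72_P146541: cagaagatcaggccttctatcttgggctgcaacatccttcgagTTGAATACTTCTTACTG
TXNIP, A_72_P391733: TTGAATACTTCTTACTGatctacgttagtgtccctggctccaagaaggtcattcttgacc
TXNIP, A_72_P634991: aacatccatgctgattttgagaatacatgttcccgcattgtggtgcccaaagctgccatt
The last pair is of TXNRD1, where the probe in the first line was tested and the probe in the second was above background on 1 array.
TXNRD1, A_72_P455657: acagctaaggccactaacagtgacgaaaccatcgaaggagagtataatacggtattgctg
TXNRD1, A_72_P177956: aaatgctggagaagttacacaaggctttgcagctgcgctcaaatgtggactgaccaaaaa
Among all 1689 pairs of probes of different genes of the system the longest shared run was 11 bases, and 19 pairs within a gene shared 20 bases or more. Most of the latter are not printed, among them 2 pairs of identical probes, of TXN and PRDX5. The files give no genome build for the probes, so no position is given.

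In heat-stressed muscle the cytosolic thioredoxin TXN was higher, and the mitochondrial PRDX3 and the reticular PRDX4 were lower. The other 6 genes tested did not pass the threshold, which was a limma p below 0.05 after Benjamini-Hochberg adjustment over all 41517 probes tested. Of the 61 probes, 17 were called, 5 higher and 12 lower. Over all probes tested 16.0% were called, 7.73% higher and 8.30% lower, so the share of 27.9% for the system is to be read against that background. Without adjustment 27 of the 61 probes had a p below 0.05, beside 30.7% of all probes. The median log2 difference was -0.18 over the 61 probes, which are not independent, 0.01 over the 9 genes and -0.02 over all probes. The 17 calls came from probes named for 3 genes: 5 of 5 of TXN, 6 of 16 of PRDX3 and 6 of 6 of PRDX4. The TXN count includes O7867, which binds the strand opposite to A_72_P177678. Each gene is described by its brightest probe, all values are log2 of the normalised spot intensity, and a level is compared within a probe only.

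**Figure D1:**
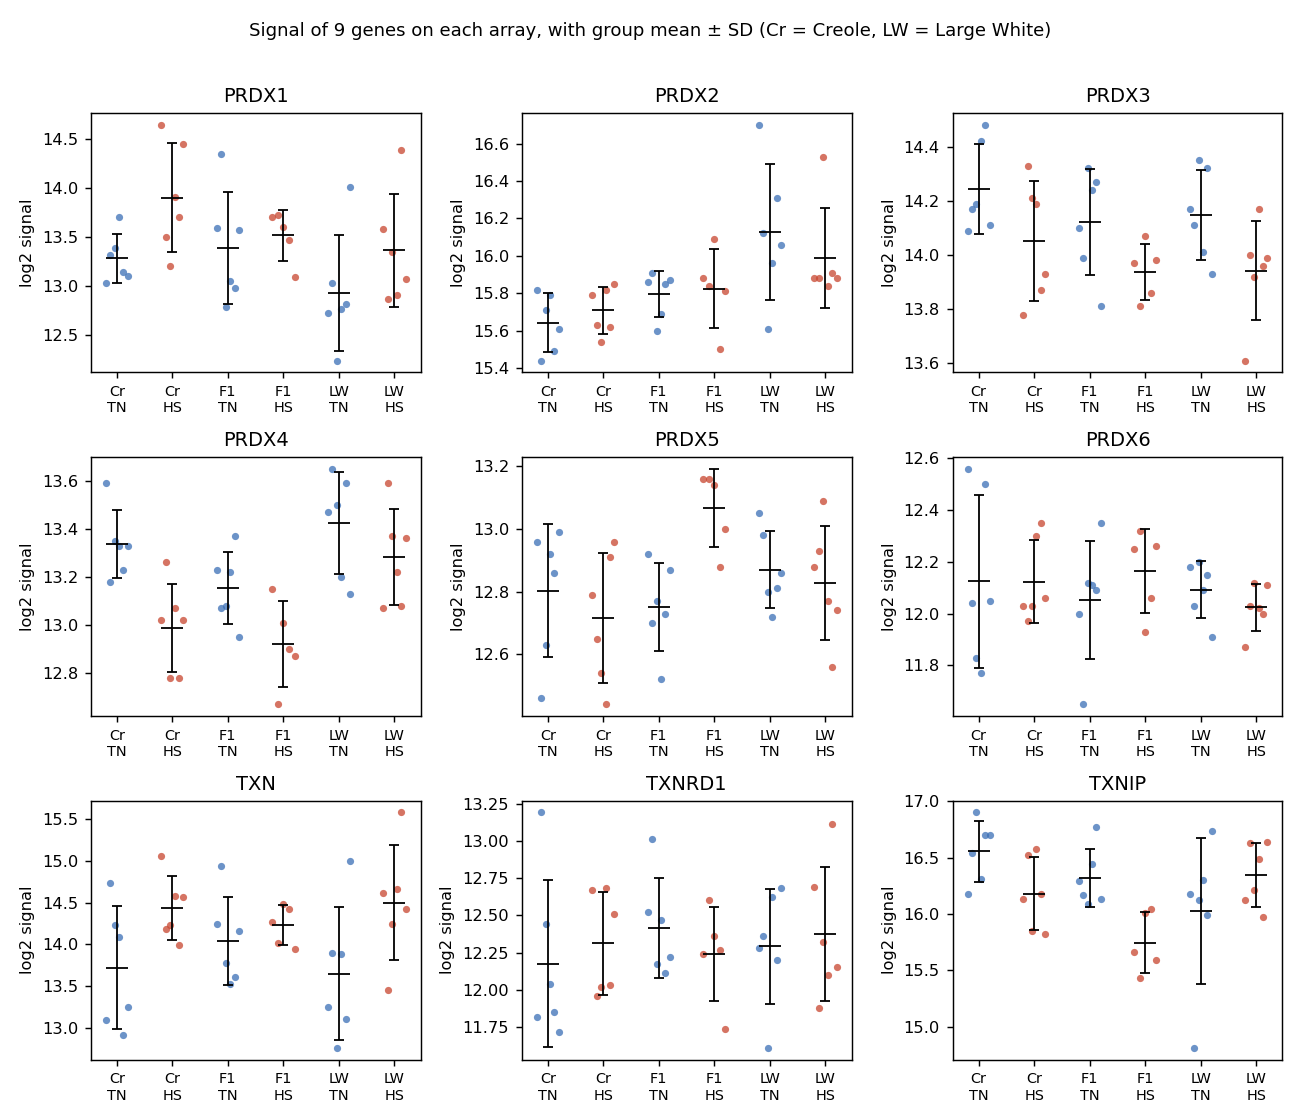
Level of the brightest probe of each of the 9 genes (vertical axis, log2 signal) in the 6 groups. Each point is 1 array, the bar is the group mean and the whisker is ± 1 SD. TXN lay higher in HS than in TN in each breed and PRDX3 and PRDX4 lower, with overlapping ranges, and PRDX2 was lowest in Creole pigs.

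Among the thioredoxins, TXN stood at log2 levels from 12.76 to 15.00 on TN arrays, with a median of 13.83. On HS arrays it ranged from 13.46 to 15.58, with a median of 14.42. The ranges overlapped, although 14 of 17 HS arrays were above the TN mean of their breed. The mean log2 level was 13.80 ± 0.68 (SD, n = 18) at thermoneutrality and 14.40 ± 0.47 (SD, n = 17) in heat stress, a log2 difference of 0.60 (SE 0.20, adjusted p = 0.0341). By breed the log2 difference was 0.72 (SE 0.33) in Creole, 0.19 (SE 0.35) in F1 and 0.85 (SE 0.33) in Large White pigs, with adjusted p of 0.205, 0.953 and 0.198 and no call within any breed. The order of the 6 group means placed the 3 HS groups above the 3 TN groups, from 14.50 in Large White HS to 13.65 in Large White TN, but no neighbours in that order differed by more than their SD. Within slides, where arrays were hybridised together, the log2 difference was 0.67, -0.20, 1.48, 0.51 and 0.51 on slides 1 to 5. On slide 2 the TXN level was thus lower on HS arrays, and slide 5 held 1 Creole HS and 2 Large White TN arrays. The call did not hold on leaving out any 1 of 8 arrays (Creole TN 1, 5 and 6, Creole HS 1, and in Large White pigs TN 3 and 5 and HS 1 and 5), where the log2 difference was 0.52 to 0.58 and the adjusted p 0.0503 to 0.0610.

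All 5 probes named TXN were called, although O7867 binds the strand opposite to A_72_P177678. The 4 bright probes gave log2 differences of 0.59 to 0.60, and A_72_P546866 and A_72_P121041 hold the same 60 bases. On the 35 arrays the latter minus the former gave a log2 difference of -0.29 on average, with an SD of 0.05. The reverse-complement probe O7867 had low log2 levels, 6.85 ± 0.27 (SD, n = 18) at thermoneutrality and 7.13 ± 0.22 (SD, n = 17) in heat stress. Its log2 difference was 0.28 (SE 0.08, adjusted p = 0.0166), and 17 of 17 HS arrays were above the TN mean of their breed.

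**Figure D2:**
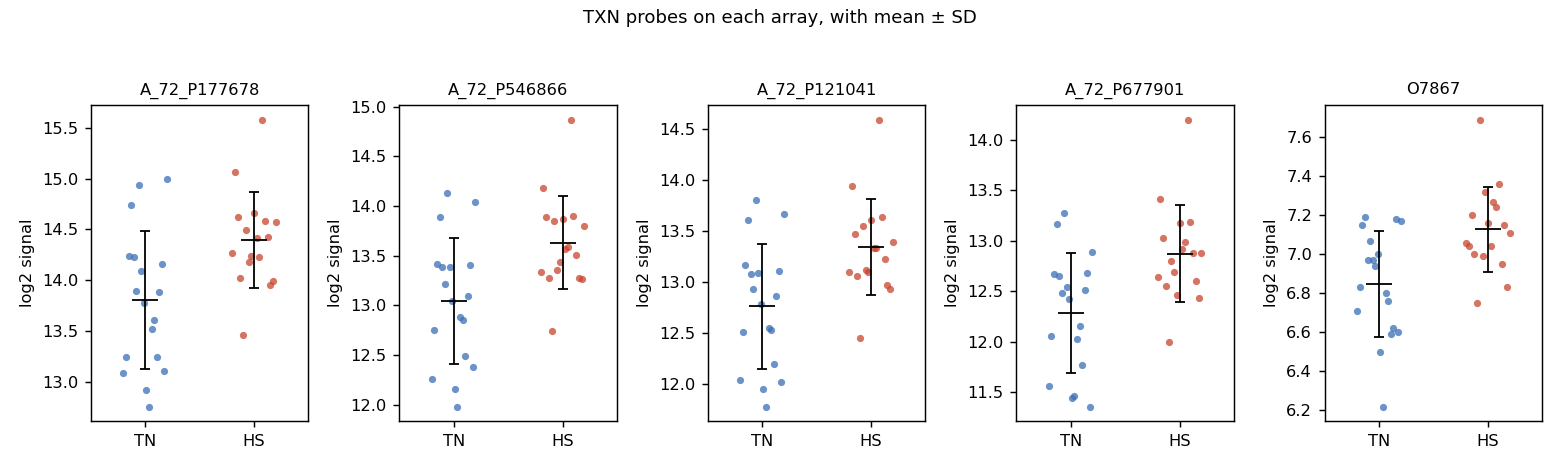
Log2 signal of each of the 5 TXN probes (vertical axes, each with its own range) on the 18 TN and 17 HS arrays. Each point is 1 array, the bar is the mean and the whisker is ± 1 SD. The mean of HS lay above that of TN for all 5, by about 0.6 for the 4 bright probes and by 0.28 for O7867.

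The TXN difference moved with markers of white blood cells. Of the 20 leukocyte markers 17 were measured, and 6 of them (LYZ, CSF1R, AIF1, TYROBP, FCER1G and LAPTM5) were higher in HS and none lower. Their mean log2 level ranged from 7.50 to 10.03 on TN arrays and from 8.80 to 10.42 on HS arrays, with means of 8.87 ± 0.69 (SD, n = 18) and 9.53 ± 0.48 (SD, n = 17), while PTPRC, a marker of all leukocytes, had a log2 difference of -0.02 (SE 0.07, adjusted p = 0.906). ITGAM and CYBB had no probe by that name, and CD79B had none bright enough. With this mean as a covariate the TXN log2 difference was 0.00 (SE 0.10, adjusted p = 0.996). With the brightness of the array, the red blood cell mean or the fibre means as covariates it was 0.31, 0.38 and 0.17 (adjusted p = 0.358, 0.425 and 0.702). Of 12 connective tissue markers 4 were higher in HS, and the mean log2 level of that list was 11.53 in TN (10.39 to 11.88) and 11.83 in HS (11.41 to 12.20). In a piece of muscle, more cells of a type and more RNA per cell cannot be told apart, and the part of these cells in the result was not tested beyond these values. For the tissue itself, 11 of 11 skeletal muscle markers were measured, with a mean log2 level of 17.84 ± 0.07 (SD) at 24 °C and 17.74 ± 0.09 (SD) in HS. Of these, DES was higher in HS (0.24, SE 0.05, adjusted p = 0.0031) and MYH2 (-0.21, SE 0.06, adjusted p = 0.0144) and TTN (-0.37, SE 0.11, adjusted p = 0.0170) were lower.

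The reductase that recharges thioredoxin and the protein that restrains it did not pass the threshold. TXNRD1, the reductase, had log2 levels of 12.30 ± 0.42 (SD, n = 18) at thermoneutrality and 12.31 ± 0.36 (SD, n = 17) in heat stress, a log2 difference of 0.02 (SE 0.13, adjusted p = 0.940). Its 6 tested probes gave log2 differences from -0.04 to 0.04. With the leukocyte mean as a covariate, however, TXNRD1 was called lower in HS, by a log2 difference of -0.35 (SE 0.09, adjusted p = 0.0165). That mean was itself higher in HS (8.87 in TN, 9.53 in HS) and had r of 0.83 with TXNRD1 within groups. What the adjusted difference reflects was not tested. TXNIP had log2 levels of 16.30 ± 0.46 (SD, n = 18) at thermoneutrality and 16.11 ± 0.37 (SD, n = 17) in heat stress, a log2 difference of -0.20 (SE 0.13, adjusted p = 0.337). All 11 TXNIP probes had differences below 0, from -0.31 to -0.20, and none was called.

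Among the peroxiredoxins, PRDX4 of the endoplasmic reticulum showed the smallest adjusted p. Its log2 level was 12.95 to 13.65 on TN arrays (median 13.28) and 12.67 to 13.59 on HS arrays (median 13.07), and 15 of 17 HS arrays were below the TN mean of their breed. The mean log2 level was 13.30 ± 0.20 (SD, n = 18) at thermoneutrality and 13.07 ± 0.24 (SD, n = 17) in heat stress, a log2 difference of -0.24 (SE 0.06, adjusted p = 0.00815). The 6 probes gave log2 differences from -0.29 to -0.23, with adjusted p of 0.00367 to 0.0273. The log2 difference was -0.35 (SE 0.11) in Creole, -0.23 (SE 0.11) in F1 and -0.14 (SE 0.11) in Large White pigs, and none of these was called (adjusted p = 0.0691, 0.588 and 0.512). PRDX4 was below its TN mean on every slide, with log2 differences of -0.39, -0.04, -0.26, -0.19 and -0.34.

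PRDX3, the mitochondrial peroxiredoxin, had log2 levels of 13.81 to 14.48 on TN arrays (median 14.17) and 13.61 to 14.33 on HS arrays (median 13.97). HS and TN overlapped in each breed, and 15 of 17 HS arrays were below the TN mean of their breed. The mean log2 level was 14.17 ± 0.17 (SD, n = 18) at thermoneutrality and 13.98 ± 0.18 (SD, n = 17) in heat stress, a log2 difference of -0.19 (SE 0.06, adjusted p = 0.0249). The difference was alike in size in Creole (-0.19, SE 0.10), F1 (-0.18, SE 0.11) and Large White pigs (-0.21, SE 0.10), none of them called. All 16 PRDX3 probes had differences below 0, from -0.25 to -0.17, with an SE of 0.06 to 0.08 for the 6 that were called and of 0.08 to 0.11 for the 10 that were not. On slides 1 to 5 the log2 difference was -0.34, -0.10, -0.30, -0.04 and -0.19.

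PRDX3 and PRDX4 lost their call, without a change of sign, with the brightness of the array, the leukocyte mean, the red blood cell mean or the fibre genes as covariates, and under scaling to spike-in controls. For PRDX3 the log2 difference was -0.11 with brightness, -0.10 with leukocytes, -0.22 with red blood cells and -0.15 under spike-in scaling (adjusted p = 0.275, 0.338, 0.114 and 0.162). For PRDX4 it was -0.17, -0.15, -0.18 and -0.14 in the same order (adjusted p = 0.104, 0.161, 0.201 and 0.234). Of the red blood cell markers 3 of 7 measured genes were called in HS, all lower: HBB, a haemoglobin chain (-1.21, SE 0.22, adjusted p = 0.000536), AHSP, a chaperone of haemoglobin (-0.44, SE 0.15, adjusted p = 0.0479), and EPB42 of the red cell membrane (-0.33, SE 0.11, adjusted p = 0.0408). The list did not move as a whole. SLC4A1 (0.37, SE 0.17, adjusted p = 0.123) and HEMGN (0.06, SE 0.06) lay above 0, and ALAS2 (-0.23, SE 0.10) and CA1 (-0.01, SE 0.08) below. The mean log2 level of the list was 7.20 to 7.93 in TN and 6.96 to 7.69 in HS, with means of 7.55 ± 0.17 (SD) and 7.30 ± 0.17 (SD), and no member was called with that mean as a covariate. The fast fibre list had 3 of 9 measured genes lower in HS (MYH2, TNNI2 and ATP2A1), with mean log2 levels of 18.29 to 18.44 in TN and 17.97 to 18.38 in HS. With fast and slow fibre means as covariates, the log2 difference was -0.04 (SE 0.07, adjusted p = 0.792) for PRDX3 and -0.10 (SE 0.07, adjusted p = 0.507) for PRDX4. Their part in the result was not tested beyond this.

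The cytosolic PRDX1 missed the threshold. Its log2 level was 12.24 to 14.34 on TN arrays (median 13.07) and 12.87 to 14.64 on HS arrays (median 13.58), a log2 difference of 0.40 (SE 0.16, adjusted p = 0.0788). The overlapping probe O9257 gave 0.36 (SE 0.14, adjusted p = 0.0688). PRDX1 passed the threshold with slide as a fixed block (0.44, SE 0.15, adjusted p = 0.0372) and with arrays weighted by quality (0.37, SE 0.13, adjusted p = 0.0386), and turned to -0.06 (SE 0.10, adjusted p = 0.782) with the leukocyte mean as a covariate. PRDX2 (-0.02, SE 0.08), PRDX5 (0.05, SE 0.06) and PRDX6 (0.01, SE 0.07) had log2 differences smaller than their SE, with adjusted p of 0.900, 0.612 and 0.933. The 9 PRDX6 probes ranged from -0.02 to 0.04.

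**Figure D3:**
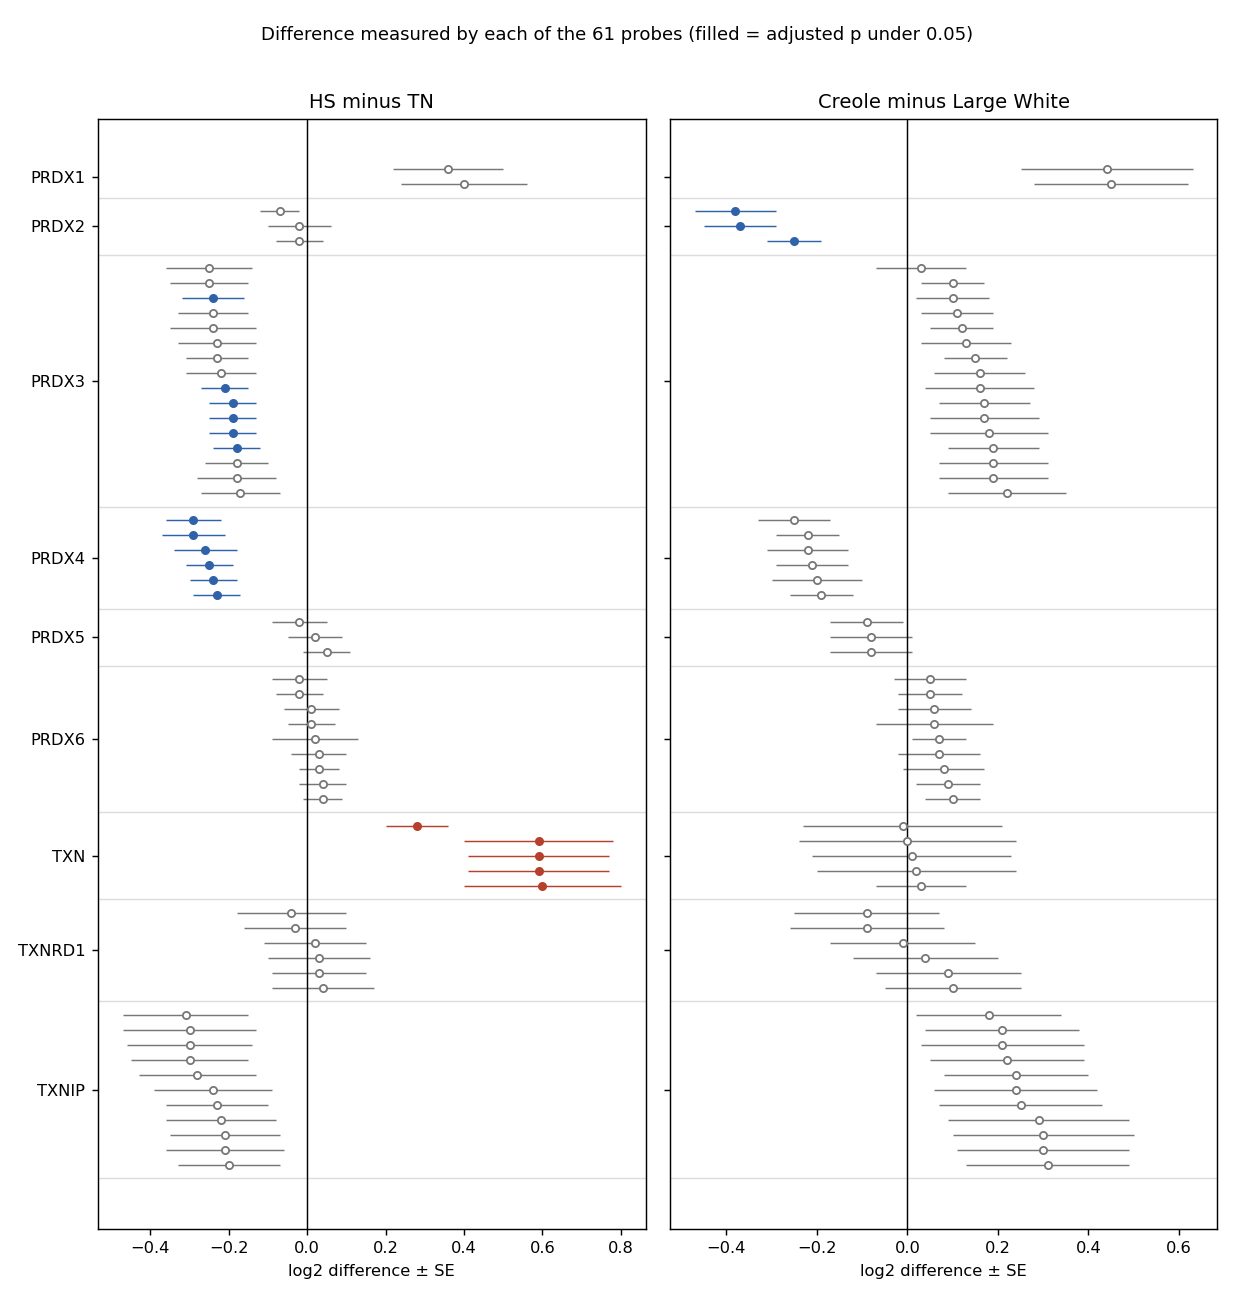
Log2 difference of HS minus TN (left) and of Creole minus Large White (right) for each of the 61 tested probes, grouped by gene on the vertical axis. Each point is 1 probe, the whisker is ± 1 SE, and filled points passed an adjusted p of 0.05, red for higher and blue for lower. Probes of a gene lay close together, with TXN to the right and PRDX3 and PRDX4 to the left in HS, and PRDX2 to the left in Creole pigs.

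Differences between breeds were few. PRDX2, a cytosolic peroxiredoxin abundant in red blood cells, was lower in Creole than in Large White pigs, and all 3 of its probes were called. These were the 3 calls among the 61 probes (4.92%), all lower, beside 3.64% called over all probes tested and 1.92% called lower. The PRDX2 probes O453 and A_72_P383583 share a run of 54 bases, so they are nearly the same measurement. Creole arrays ranged in log2 level from 15.44 to 15.82 at TN and from 15.54 to 15.85 at HS. Large White arrays ranged from 15.61 to 16.70 and from 15.84 to 16.53, so the breeds overlapped at both temperatures, although 12 of 12 Creole arrays were below the Large White mean. The mean log2 level was 15.68 ± 0.14 (SD, n = 12) among Creole pigs against 16.06 ± 0.31 (SD, n = 12) among Large White pigs, a log2 difference of -0.38 (SE 0.09, adjusted p = 0.0120). The other PRDX2 probes gave -0.37 (SE 0.08, adjusted p = 0.00387) and -0.25 (SE 0.06, adjusted p = 0.0108). On the 5 slides the log2 difference was -0.60, -0.47, -0.27, -0.24 and -0.34, although slide 5 held 1 Creole HS and 2 Large White TN arrays. F1 pigs lay between, at 15.81 ± 0.16 (SD, n = 11), and were called against neither parent breed.

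The PRDX2 call was lost under 75th percentile scaling (-0.35, adjusted p = 0.0652) and on TN arrays alone (-0.48, SE 0.14, adjusted p = 0.122). On TN arrays alone the calls over all probes fell from 1513 to 220. The red blood cell markers gave no call between Creole and Large White pigs in 7 measured genes of 12. The lowest log2 differences were -0.50 (SE 0.27) for HBB and -0.43 (SE 0.19) for AHSP. The others ran from -0.19 (SE 0.20) for SLC4A1 to 0.21 (SE 0.12) for ALAS2, and the median of the list was 0.02. With the mean of the red blood cell list as a covariate PRDX2 kept its call (-0.33, SE 0.08, adjusted p = 0.0252). That mean includes genes of low log2 level, CA1, HEMGN and ALAS2, at 5.77, 5.85 and 6.13 in Creole pigs. It had r of 0.46 with PRDX2 after the group means were taken off (rho 0.39, permutation p = 0.0326 and 0.0379, adjusted 0.0882 and 0.102). The part of red blood cells in the PRDX2 difference was not tested beyond these values. Markers of other cells did differ. Of 7 measured endothelial markers 3 were lower in Creole pigs, KDR (-0.96, SE 0.16, adjusted p = 0.000348), CLDN5 (-0.59, SE 0.15, adjusted p = 0.0205) and PECAM1 (-0.40, SE 0.11, adjusted p = 0.0275), as were 2 of 12 connective tissue markers, COL3A1 (-0.43, SE 0.11, adjusted p = 0.0189) and DCN (-0.28, SE 0.08, adjusted p = 0.0314). The endothelial mean had r of 0.44 with PRDX2 over the 35 arrays as they stand and 0.17 after the group means were taken off (rho -0.09, permutation p = 0.387 and 0.644). The part of these cells in the PRDX2 difference was not tested. PRDX1 had a log2 difference of 0.44 (SE 0.19, adjusted p = 0.236) between Creole and Large White pigs. With the leukocyte mean as a covariate this became 0.60 (SE 0.10, adjusted p = 0.000435). PRDX4 was lower in F1 than in Large White pigs by a log2 difference of -0.32 (SE 0.08, adjusted p = 0.0446), at 13.05 ± 0.20 (SD, n = 11) against 13.35 ± 0.21 (SD, n = 12), and 2 of its 6 probes were called, both lower, beside 0.525% of all probes called and 0.265% called lower. That call was lost on leaving out any of 19 single arrays. No member was called between F1 and Creole pigs (0.477% of all probes) or between F1 and the midpoint of the parents (0.246%), where 13 and 6 of the 61 probes had an unadjusted p below 0.05, beside 8.88% and 7.35% of all probes.

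TXNIP was the gene whose response to heat looked least alike between breeds, but the breed by temperature interaction was called for none of the 61 probes and for none of the 41517 (0%). The unadjusted p was below 0.05 for 11 of 61 probes, 9 of them TXNIP and 2 PRDX5, beside 3.84% of all probes. These 11 probes are not independent measurements, so their count cannot be set directly against that share. The PRDX5 probe O12302 was among them, while A_72_P146311, which holds the same 60 bases, was not. Among the TXNIP probes of the 11, A_72_P585156 shares 55 bases with A_72_P549696 and 28 with A_72_P592864. The last 2 share 33 bases. For the brightest TXNIP probe the log2 difference was -0.37 (SE 0.21) in Creole, -0.57 (SE 0.22) in F1 and 0.32 (SE 0.21) in Large White pigs, with an interaction p of 0.0125 unadjusted and 0.963 adjusted. F1 HS arrays read 15.43, 15.59, 15.66, 16.01 and 16.04, and F1 TN arrays read 16.09 to 16.77 with a median of 16.23, so these groups did not overlap. In F1 pigs this held for 3 of the 61 probes, all of TXNIP, beside 1.14% of all probes. In Creole and Large White pigs it held for 0 of the 61, beside 1.91% and 1.07%. Creole arrays overlapped, at 16.18 to 16.90 in TN and 15.82 to 16.58 in HS. Large White TN arrays ranged from 14.81 to 16.74 and HS arrays from 15.97 to 16.64, and the second lowest Large White TN array read 15.99. The value above 0 in Large White pigs rested on the array at 14.81, since without it (Large White TN 2) the log2 difference was 0.08 (SE 0.17, adjusted p = 0.848) and the interaction p 0.0277 unadjusted and 0.963 adjusted, with 6 of 11 TXNIP probes below 0.05 unadjusted. The 3 probes printed above gave the lowest p of the system, 0.00500, 0.00416 and 0.00225 unadjusted. PRDX5 read 12.88, 13.00, 13.14, 13.16 and 13.16 in F1 HS and 12.52 to 12.92 in F1 TN, and its interaction p was 0.0176 unadjusted and 0.963 adjusted. In the order of its group means F1 HS came first, at 13.07, and the next group was at 12.87, the only gap between neighbours in the 9 genes that was larger than their SD. Within breeds no member was called, beside 1.91% of all probes in Creole, 0.00482% in F1 and 0.00482% in Large White pigs, where 21, 13 and 11 of the 61 probes had an unadjusted p below 0.05, beside 21.5%, 8.30% and 16.6% of all probes.

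Other genes of the thioredoxin pathway were followed through 44 names on 4 lists, of which 37 were measured. In HS 1 was higher and 5 were lower, with a median log2 difference of -0.06 over the 37. That is 16.2% of the 37 called, beside 16.0% of all probes tested, so the share called is near the background and the genes below are named as values only. Of the reductases, repair enzymes and glutaredoxins, 11 of 14 were measured and 1 was lower, MSRB3, which repairs oxidised methionine (-0.34, SE 0.10, adjusted p = 0.0230, lower on 16 of 17 HS arrays). The mitochondrial reductase TXNRD2 had a log2 difference of -0.02 (SE 0.07). Of the proteins with a thioredoxin fold, 12 of 15 were measured. TXNDC17, a cytosolic thioredoxin relative, was higher (0.22, SE 0.07, adjusted p = 0.0394), and TXNDC12, of the endoplasmic reticulum, was lower (-0.22, SE 0.07, adjusted p = 0.0274). All 4 alpha-arrestins related to TXNIP were measured, and ARRDC2 was lower (-0.47, SE 0.17, adjusted p = 0.0488). Of the regulators and partners, 10 of 11 were measured, and 2 were lower. These were MLXIPL, a glucose-responsive transcription factor that acts on TXNIP (-0.19, SE 0.06, adjusted p = 0.0324), and NQO1, a quinone reductase and target of NFE2L2 (-0.41, SE 0.14, adjusted p = 0.0428). MLXIPL had low log2 levels, 6.32 ± 0.14 (SD) in TN and 6.14 ± 0.21 (SD) in HS. NFE2L2 itself (-0.04, SE 0.07) and HMOX1, another of its targets (-0.14, SE 0.29), were not called. Between Creole and Large White pigs 1 of the 37 was called (2.7%, beside 3.64% of all probes). This was TXNDC16, which was higher in Creole pigs (0.53, SE 0.15, adjusted p = 0.0483). Its log2 levels were low, 6.75 ± 0.47 (SD) in Creole and 6.23 ± 0.37 (SD) in Large White pigs.

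Animals of the same group differed from each other, and the members were compared across arrays after each value had its group mean taken off. Of 36 pairs of genes, 6 passed an adjusted p of 0.05 both by Pearson r and by Spearman rho, with 100000 permutations within groups, two-sided. TXN, TXNRD1 and PRDX1 rose and fell together across animals. Pearson r was 0.81 for TXN with TXNRD1 (rho 0.79), 0.78 for TXN with PRDX1 (rho 0.71) and 0.72 for PRDX1 with TXNRD1 (rho 0.78). The permutation p was 1e-05 for each, the smallest that these permutations can give, and 0.00012 adjusted. PRDX2 with PRDX5 gave r of 0.49 (rho 0.51, permutation p = 0.00163 and 0.00356, adjusted 0.0117 and 0.0214). TXN with PRDX6 gave r of -0.58 (rho -0.65, permutation p = 0.00033 and 0.00012, adjusted 0.00297 and 0.00108) and PRDX1 with PRDX3 r of -0.53 (rho -0.56, permutation p = 0.00459 and 0.00196, adjusted 0.0275 and 0.0141). Without the 2 arrays farthest from the median of 1 gene of the pair, r was 0.75 for TXN with TXNRD1 (TXN), 0.75 for PRDX1 with TXN (PRDX1), 0.68 for PRDX1 with TXNRD1 (PRDX1), 0.35 for PRDX2 with PRDX5 (PRDX2), -0.48 for PRDX6 with TXN (PRDX6) and -0.45 for PRDX1 with PRDX3 (PRDX1), with that gene in parentheses. TXNIP passed with no other member, and its r lay between -0.27 and 0.17.

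**Figure D4:**
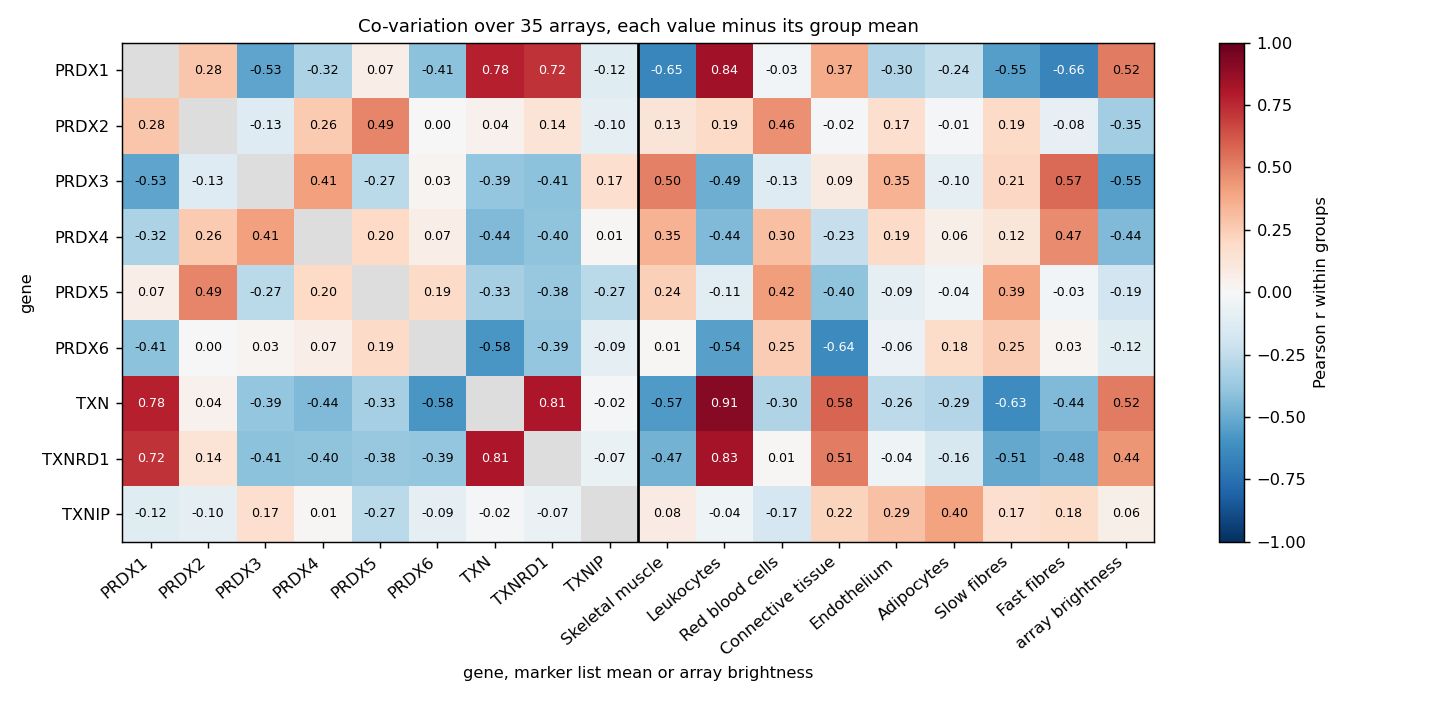
Pearson r over 35 arrays, each value minus its group mean, between the 9 genes (rows) and the same genes, 8 marker list means and array brightness (columns, right of the line). Red is positive and blue negative. TXN, TXNRD1 and PRDX1 form a block of r from 0.72 to 0.81 and have r from 0.83 to 0.91 with the leukocyte list.

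The same animals were high in leukocyte markers. In a family of 81 relations of 9 genes with 8 marker lists and array brightness, 15 passed by both measures, 9 positive and 6 negative. The leukocyte mean had r of 0.91 with TXN (rho 0.88), 0.84 with PRDX1 (rho 0.84) and 0.83 with TXNRD1 (rho 0.84), each with a permutation p of 1e-05 and 0.00027 adjusted, and of 0.89, 0.81 and 0.80 without the 2 arrays farthest from the median of the gene. With PRDX3 and PRDX6 the leukocyte mean ran the opposite way, with r of -0.49 (rho -0.51, permutation p = 0.00858 and 0.00607, adjusted 0.0331 and 0.0356) and -0.54 (rho -0.53, permutation p = 0.00347 and 0.00255, adjusted 0.0176 and 0.0207), or -0.48 and -0.43 without such arrays. PRDX3 was higher in animals with more fast fibre signal (r 0.57, rho 0.64, permutation p = 0.00102 and 3e-05, adjusted 0.00826 and 0.000607) and lower on brighter arrays (r -0.55, rho -0.59, permutation p = 0.00242 and 0.00092, adjusted 0.0151 and 0.00962). PRDX6 was lower where connective tissue markers were higher (r -0.64, rho -0.59, permutation p = 0.00017 and 0.00095, adjusted 0.00229 and 0.00962). The rest of the 15 were as follows. PRDX1 had r of -0.66 with fast fibres (rho -0.60), 0.52 with brightness (rho 0.48) and 0.37 with connective tissue (rho 0.42). TXN had r of 0.58 with connective tissue (rho 0.70) and -0.63 with slow fibres (rho -0.53). PRDX4 had r of 0.47 with fast fibres (rho 0.48), and PRDX3 had 0.50 with skeletal muscle markers (rho 0.51). Gene and marker values of a point come from the same array, so they share its RNA and its hybridisation.

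The genes whose levels were most like each member over the 35 arrays were sought among 8992 genes, and r is given as a description. For TXN they were CD1.1, DOCK11 and TNFAIP8L2 (r 0.95, 0.94 and 0.94), and for TXNRD1 RANBP1, ACSL5 and TIMP1 (0.92, 0.91 and 0.90). For PRDX1 they were RILPL2, CHEK2 and CYB561D2 (0.88, 0.87 and 0.87). For PRDX3 they were APOO, NDUFS1 and IMMT (0.77, 0.76 and 0.75), and for PRDX4 PGAM2, MDH2 and S100G (0.81, 0.79 and 0.78). For PRDX2 they were STARD8, LARS2 and ACADS (0.75, 0.71 and 0.71), for PRDX5 TRAPPC2L, OVGP1 and RHOBTB1 (each 0.72) and for PRDX6 NGRN, STYX and PROX1 (0.74, 0.71 and 0.70). TXNIP had the lowest values, with PDK4, ZFAND5 and HNRNPA1 at 0.66, 0.64 and 0.60. After the group means were taken off, r was 0.73 for TXNIP with PDK4, 0.94 for TXN with CD1.1 and 0.76 for PRDX3 with APOO.

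**Figure D5:**
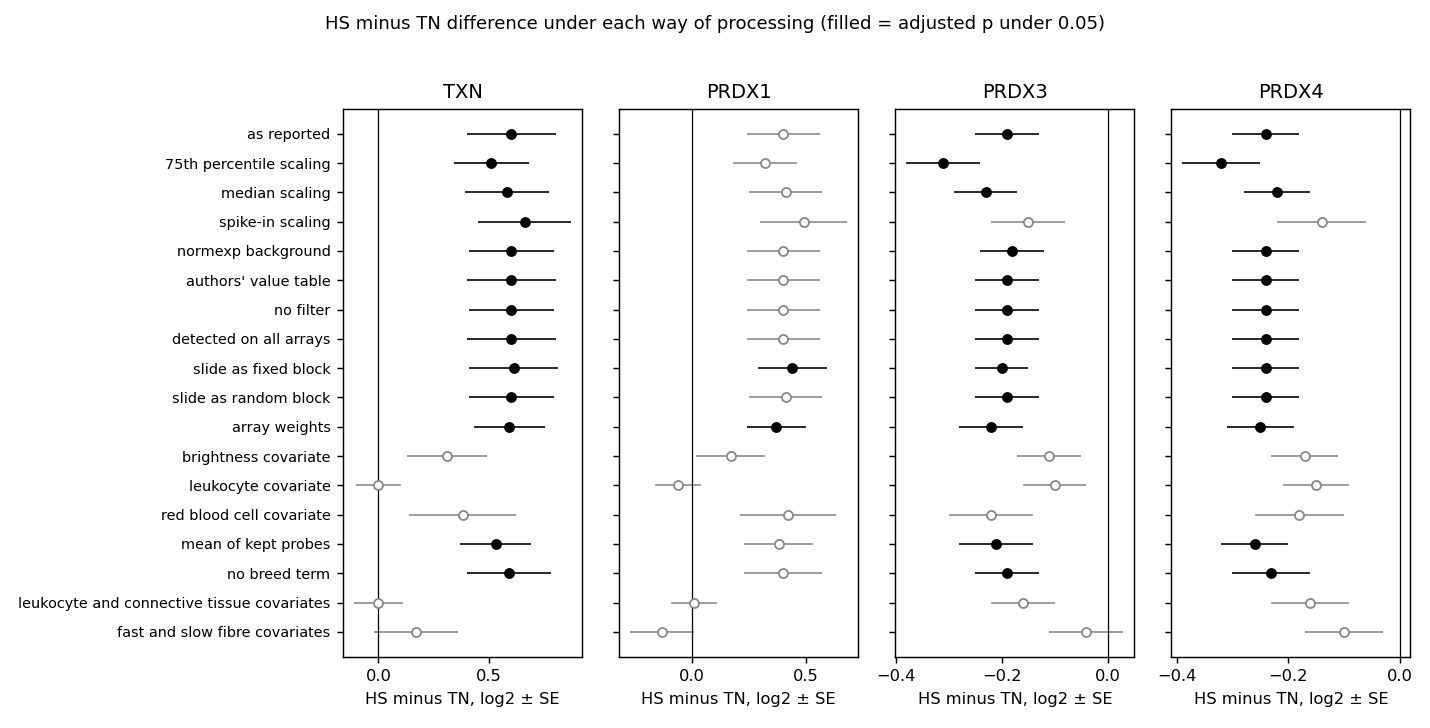
Log2 difference of HS minus TN (horizontal axes, each with its own range) for TXN, PRDX1, PRDX3 and PRDX4 as reported and under 17 other ways of processing (rows). Whiskers are ± 1 SE, and filled points passed an adjusted p of 0.05. TXN fell to 0.00 with the leukocyte mean as a covariate, while PRDX3 and PRDX4 stayed below 0 in every row.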

How the data were processed

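Total RNA of 35 pigs was hybridised to 1-colour Agilent arrays on 5 slides, scanned on 1 day. The authors deposited scanner files (Agilent Feature Extraction 10.10.1.1, per the submitters' processing notes), whose median pixel intensity of each spot was used, and a table of normalised log2 values of 40649 probes, which served as an alternative. Per array, the share of probes that the scanner software marked well above background ran from 58.4% to 75.9%, the number of arrays limits the precision, and no member spot was saturated.

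Intensities were quantile-normalised and put on the log2 scale. Control spots and 105 outlier spots were left out. A probe was kept (41517 of 60305, 68.8%) where some group had it well above background on 75% or more of its arrays. limma 3.58.1 (R 4.3.3) was fitted with breed and temperature, and with 6 group means for within-breed differences and the interaction (moderated F), with Benjamini-Hochberg adjustment over all kept probes. The brightest kept probe, by mean over all arrays, stands for a gene. The study's model has pen, slaughter day and parents as random effects, which the labels do not give, so arrays were treated as independent, although littermates and penmates share part of their spread. Replicates were numbered in accession order. The script was tested on simulated data. Alternatives changed scaling, background, filter, slide, weights and covariates. Correlations used arrays minus group means, permuted within groups. The genes most alike were the 3 with the highest Pearson r over the 35 arrays. Names follow the array's design. The members and lists were chosen with earlier results of these data known, and the marker correlations after the data were seen.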

Additional observations from a re-analysis of the deposited data

Results flagged for a closer look

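Of the 54 combinations of 9 genes with 6 groups, 1 held an array that stood apart from its group by Dixon's test at 95%, where chance gives about 1 in 20. PRDX2 read 16.53 on the log2 scale on 1 Large White HS array, while the other 5 arrays of that group read 15.84 to 15.91. The gap made up 0.90 of the range of the group, against a critical value of 0.625. Without any 1 array the log2 difference of PRDX2 between Creole and Large White pigs stayed between -0.42 and -0.32.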

How the results depend on the processing

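Between HS and TN, 3 genes were called. The count was 1 under spike-in scaling (TXN), 1 with the leukocyte mean as a covariate (TXNRD1), 1 with leukocyte and connective tissue means (TXNRD1), and 0 with array brightness, the red blood cell mean or the fibre means. It was 3 or 4 under the other 11 settings and 2 to 4 on leaving out single arrays. Both the leukocyte with connective tissue and the fibre covariates were added after the data were seen. Over all probes the calls fell from 6654 to 4649 under spike-in scaling, 2092 with brightness, 2438 with leukocytes, 2007 with leukocytes and connective tissue, 1648 with fibres and 707 with red blood cells, so these covariates took calls from probes at large. Of the 6654, 3209 were higher, as were 4021 of 4649 under spike-in scaling, 2733 of 7286 under 75th percentile scaling and 3773 of 6653 under median scaling.

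Between Creole and Large White pigs 1 gene was called. The count was 0 under 75th percentile scaling and on TN arrays alone, and 2 under median scaling (PRDX2 and PRDX4). It was 3 with the leukocyte mean (PRDX1, PRDX2 and PRDX4) and 2 with leukocyte and connective tissue means (PRDX1 and PRDX2). On leaving out any single array it was 1. Over all probes the calls went from 1513 to 1568 under 75th percentile scaling, 220 on TN arrays alone and 1540 under median scaling. They were 2182 with leukocytes and 1372 with leukocytes and connective tissue. Between F1 and Large White pigs 1 gene was called, with 0 under 75th percentile scaling, without a filter and with slide as a fixed block. The count was 2 under spike-in scaling (PRDX2 and PRDX4), and 0 to 1 on leaving out single arrays. Calls over all probes went from 218 to 151, 144 and 174 in the first 3 of these settings, in that order, and to 429 under spike-in scaling. Within Creole pigs the count was 0, and 0 to 1 on leaving out single arrays (PRDX4, without Creole TN 2 or Creole HS 2).

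Log2 differences of HS minus TN that changed sign were those of PRDX1 (-0.06 with leukocytes, -0.13 with fibres), PRDX2 (0.03 under spike-in scaling, 0.05 with brightness, 0.13 with red blood cells, and -0.05 to 0.02 on leaving out single arrays), PRDX6 (-0.03 under 75th percentile scaling and -0.02 to 0.04 on leaving out single arrays) and TXNRD1 (-0.03 under 75th percentile scaling, -0.14 with brightness, -0.35 with leukocytes, -0.34 with leukocytes and connective tissue, -0.30 with fibres, and -0.03 to 0.08 on leaving out single arrays). Between Creole and Large White pigs they were those of PRDX6 (-0.01 under spike-in scaling, -0.06 with leukocytes and connective tissue) and TXNRD1 (0.04 with leukocytes, 0.03 with both). TXN had a difference of 0.00 there, which ran from -0.29 (fibres) to 0.21 (leukocytes) over the settings and from -0.09 to 0.12 on leaving out single arrays, so it has no settled sign. The cause was not tested. PRDX1 between HS and TN was called without F1 TN 2 or Large White TN 6 (0.47, adjusted p = 0.0248 and 0.0254). For TXNIP the log2 difference in Large White pigs ran from 0.08 to 0.47 and the unadjusted interaction p from 0.00229 to 0.0277 on leaving out single arrays, which was added after the data were seen. No paired analysis was possible because the labels give no replicate numbers and no litters.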
